A study of Mus musculus with 27 samples.

Results

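The first response to cyclosporin A (CsA) in marrow cultures given Flt3 ligand (Flt3-L) was read 12 h after the ligand. The comparison was defined by the sample titles: 3 arrays of cells given Flt3-L with CsA for 12 h were set against 3 arrays of cells given Flt3-L alone for 12 h. These are 6 of the 27 one-colour Affymetrix arrays of the series. Bone marrow cells of C57BL/6 mice aged 8 to 12 weeks, taken from femur and tibia, were the source of every array. Both groups were kept in the same medium with Flt3-L at about 200 ng/ml, which came from a transfected B16 tumour line. The CsA cultures also received CsA at 2 µg/ml, added 30 min before the ligand and kept in the medium. The other arrays hold the same pair of cultures at 24 h, 48 h and 11 days, and unstimulated marrow cells, 3 arrays a group. The submitters call the replicates biological, without saying whether they came from separate mice or cultures, so the p-values measure only the spread between these arrays. No vehicle control and no batch is named in the labels.

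Calcineurin is a phosphatase that calcium switches on. It strips phosphates from the NFAT transcription factors, which then enter the nucleus. CsA binds cyclophilin A inside the cell, and this complex blocks calcineurin. Cyclophilins are also folding enzymes, and one of them sits in the endoplasmic reticulum (ER). Flt3-L is the cytokine that drives dendritic cell formation from marrow progenitors, and fresh marrow also holds granulocyte, monocyte, B lineage and red cell precursors.

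Each array gave a signal per probe set on a linear scale, and differences are given as log2 signal with CsA minus log2 signal with Flt3-L alone, ± SE. A single limma model of the 27 arrays covered all 19935 genes with a probe set of their own. A gene was called, and is said to have risen or fallen, at a Benjamini-Hochberg adjusted p under 0.05 over all of them. Marrow markers were present: none of 17 late neutrophil, 12 primary granule and 13 erythroid marker genes had a mean below the array median in either group. Marker genes of stroma and endothelium were mostly dim, with 10 of 17 below the median with CsA and 9 with Flt3-L alone.

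The 6 arrays were not equally separated. CsA array 3 correlated best with Flt3-L array 3 (r = 0.997848 across probe sets) and not with either other CsA array. On the first principal component, with 51.7% of the variance, it lay at -0.07, whereas CsA arrays 1 and 2 lay at 0.44 and 0.67 and the arrays with Flt3-L alone between -0.37 and -0.31. Array medians ran from 114.9 to 119.9 with CsA and from 121.0 to 122.7 with Flt3-L alone. The median difference over all genes was -0.04, and 0.01 after each array's median was subtracted.

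**Figure D1:**
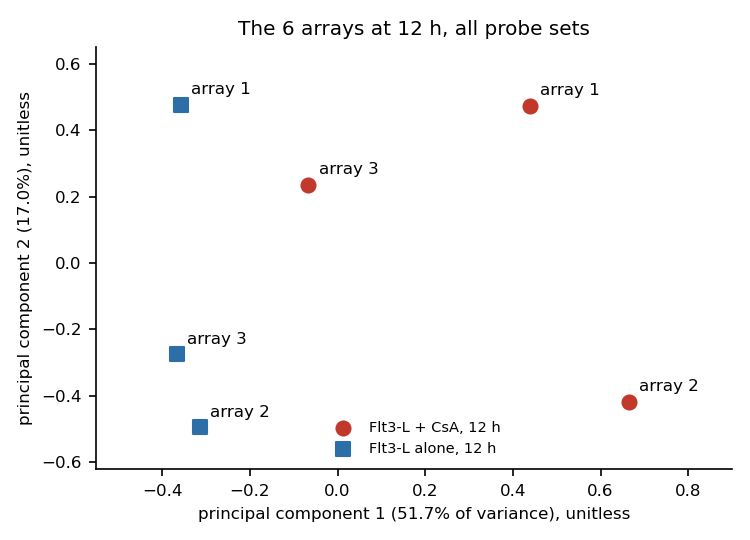
The 6 arrays at 12 h on the first 2 principal components of all probe sets (unitless scores, 51.7% and 17.0% of the variance). Circles are arrays with Flt3-L and CsA, squares arrays with Flt3-L alone, and CsA array 3 lies at -0.07 on the first component, between its own group and the other.

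With CsA, 562 genes were higher (2.82% of the genes tested) and 779 were lower (3.91%), which together is 6.73%. The changes were small. No rise reached 2-fold, the largest being 1.99-fold, and 5 falls did, the largest 2.53-fold. The median fold was 1.21 among the rises and 1.22 among the falls, and 18 rises and 29 falls reached 1.5-fold. The 3 CsA arrays lay above all 3 arrays with Flt3-L alone in 553 of the 562 rises, against 12% of all genes. They lay below all 3 in 739 of the 779 falls, against 16.3% of all genes. The counts depended on single arrays. Without CsA array 3, 1089 genes were higher and 2132 lower (5.46% and 10.7%), and these included 555 of the 562 rises and 694 of the 779 falls. Without CsA array 1 or CsA array 2 the counts were 202 higher and 249 lower, and 148 higher and 184 lower. Without Flt3-L array 1, 2 or 3 they were 271 and 323, 289 and 375, and 248 and 225. With each array's median subtracted, 786 genes were higher and 258 lower, so that 75.3% of the calls were rises, compared with 41.9% on the signals as deposited. All 562 rises and 258 of the 779 falls were called in that fit. A fit of the 6 arrays alone called 86 rises and 91 falls. In all, 60 rises and 69 falls were called in every one of these fits, and such genes are called stable below.

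**Figure D2:**
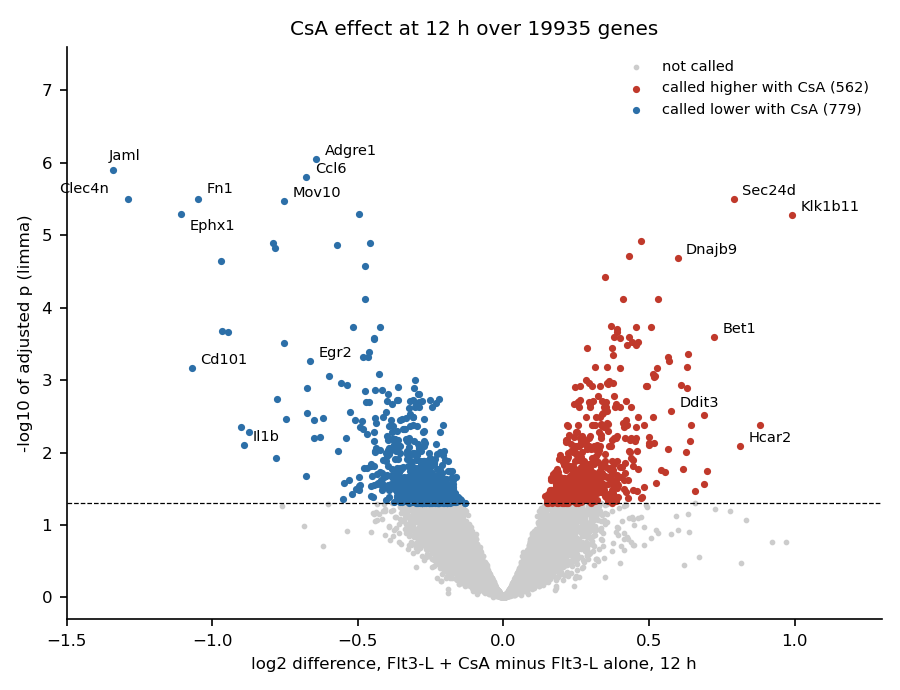
Each dot is 1 of the 19935 genes, placed by its log2 difference, Flt3-L with CsA minus Flt3-L alone at 12 h, and by -log10 of its adjusted p from limma. The dashed line marks an adjusted p of 0.05, and the 562 rises lie to the right and the 779 falls to the left, with Jaml at -1.34 and Klk1b11 at 0.99 at the ends.

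Genes of the secretory pathway were among those that rose. Proteins bound for the surface or for export are threaded into the ER, folded and glycosylated there, and carried to the Golgi in coated vesicles. Genes for each of these steps were higher with CsA: 13 of 23 tested for entry into the ER, 10 of 26 of the unfolded protein response, 9 of 25 other folding genes, 11 of 28 for N-glycosylation and 14 of 48 for vesicle coats and tethers. Of all genes tested 2.82% rose. That share includes dim genes. With the dimmest 33.3% of genes left out, 5.12% of the remaining 13290 rose and 4.99% fell, and 6361 were positive. All 26 unfolded protein response genes stayed in that fit, and 11 of them rose. For lists of brighter genes, here and below, shares over all genes thus overstate the contrast in rises, falls and positive differences. Tram2, a translocon partner, was the 1 member of these 5 lists that fell, by 0.23 on the log2 scale, a call that ended with array medians subtracted (adjusted p = 0.0661). The unfolded protein response list was chosen with earlier results of these data known, and the other lists were drawn up after their values had been seen.

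The strongest of them was Sec24d, a cargo-binding subunit of the COPII coat that buds from the ER. Its signal was 587, 598 and 534 on the CsA arrays, against 335, 313 and 345 on the arrays with Flt3-L alone. The groups stood far apart, with a difference of 0.79 ± 0.08, or 1.73-fold (adjusted p = 3.17e-06). Bet1, a SNARE that fuses those vesicles with the Golgi, had 451, 434 and 371 with CsA and 245, 242 and 272 with Flt3-L alone, a difference of 0.72 ± 0.10 (adjusted p = 2.54e-04). Lman1, the lectin that sorts glycoproteins into COPII vesicles, rose by 0.35 ± 0.06. Cope, a subunit of the returning COPI coat, rose by 0.34 ± 0.06. All 4 genes were stable.

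Among folding genes, Dnajb9, an ER co-chaperone of the HSP70 BiP, had the largest difference. It gave 1096, 1096 and 1032 with CsA, against 636, 781 and 720.2 with Flt3-L alone, so that every CsA array exceeded the highest of the others (0.60 ± 0.07, adjusted p = 2.06e-05). Hspa13, another HSP70 of the ER, followed with 918, 930.4 and 887 with CsA and 620.0, 627 and 604 with Flt3-L alone (0.56 ± 0.09). Selenos, a selenoprotein of the machinery that removes misfolded proteins, rose by 0.53 ± 0.07. The disulfide isomerases Pdia5, Pdia3, Pdia4 and P4hb, which form and reshuffle disulfide bonds, rose by 0.51 ± 0.07, 0.43 ± 0.05, 0.40 ± 0.07 and 0.37 ± 0.05. These 7 genes were stable on the probe sets used. The other probe set of Pdia4 differed by 0.16. The 9 other folding genes include Dnajc21, which is known for ribosome maturation and not for folding in the ER. BiP itself (Hspa5) moved little: it had 3565, 3466 and 3479.5 with CsA and 3216, 2906 and 2985 with Flt3-L alone. That is a difference of 0.21 ± 0.06 (adjusted p = 0.0455), called in 2 of the 6 fits that left out 1 array. Hyou1, a large HSP70-related chaperone, was stable at 0.38 ± 0.06.

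The sensors and the factor at the head of the unfolded protein response did not pass the test. Xbp1 differed by 0.14 ± 0.05 (adjusted p = 0.0734), Atf6 by 0.13 ± 0.04 (adjusted p = 0.0787), Ern1 by 0.05 ± 0.06 and Eif2ak3 by -0.11 ± 0.06. Of the heat shock proteins outside the ER response, 0 of 12 were called in either direction by limma, and 1 was at an unadjusted p under 0.05.

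At the door of the ER, Ssr3, a subunit of the complex beside the translocon, had 2389.6, 2450.1 and 2359 with CsA and 1821, 1922 and 1905 with Flt3-L alone (0.35 ± 0.04, adjusted p = 3.76e-05). Sec61a1, the pore itself, rose by 0.29 ± 0.04, Srprb, a subunit of the receptor for signal recognition particle, by 0.32 ± 0.06, and the signal peptidase subunit Spcs2 by 0.36 ± 0.06. Of the oligosaccharyltransferase, which moves the sugar tree onto asparagine, Ddost had 2287, 2390.2 and 2203 with CsA and 1878, 1648 and 1648 with Flt3-L alone. Ddost rose by 0.41 ± 0.08 and Rpn1 by 0.36 ± 0.07, and Alg2, a mannosyltransferase that builds the tree, by 0.31 ± 0.06. Ufl1, the ligase that attaches the ubiquitin-like UFM1 to ribosomes at the ER, was among the largest rises of all. It gave 631, 631 and 601 with CsA and 431, 408 and 384 with Flt3-L alone, a difference of 0.61 ± 0.10 (adjusted p = 0.00116). Ufm1 rose by 0.26 ± 0.06 on the probe set used, while its other probe set differed by -0.05. In fits that left out 1 array, the number of rises ran from 7 to 16 for entry, 5 to 12 for the unfolded protein response, 6 to 12 for other folding genes, 7 to 13 for N-glycosylation and 8 to 16 for coats and tethers, and with array medians subtracted 15 unfolded protein response genes rose. The fewest came without CsA array 2 or a Flt3-L array and the most without CsA array 3. Over all 19935 genes the rises in these fits ran from 148 without CsA array 2 to 1089 without CsA array 3. With array medians subtracted 3.94% of all genes rose. In the 6 arrays alone, where 0.43% of all genes rose, the counts were lower. They were 1 of 23 for entry, 4 of 26 for the unfolded protein response and 5 of 25 for other folding genes. For N-glycosylation 3 of 28 rose there, and for coats and tethers 5 of 48.

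Promoter windows are shown for a pair of called genes that hold a known element of this response. The ER stress response element, which is CCAAT and CCACG set 9 bases apart, is the classic element of BiP and related chaperones. The windows shown run from 250 bases before to 50 bases after the annotated start of Hspa5 (chr2:34771840-34772139, plus strand) and Creld2 (chr15:88819396-88819695, plus strand), a secreted ER stress protein, from RefSeq on GRCm38.p6, with the element in capitals.
Hspa5: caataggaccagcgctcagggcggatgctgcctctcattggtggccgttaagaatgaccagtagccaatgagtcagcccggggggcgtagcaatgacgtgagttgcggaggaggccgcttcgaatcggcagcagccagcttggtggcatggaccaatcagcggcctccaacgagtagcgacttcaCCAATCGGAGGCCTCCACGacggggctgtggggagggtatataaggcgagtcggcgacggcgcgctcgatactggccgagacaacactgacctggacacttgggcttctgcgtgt
Creld2: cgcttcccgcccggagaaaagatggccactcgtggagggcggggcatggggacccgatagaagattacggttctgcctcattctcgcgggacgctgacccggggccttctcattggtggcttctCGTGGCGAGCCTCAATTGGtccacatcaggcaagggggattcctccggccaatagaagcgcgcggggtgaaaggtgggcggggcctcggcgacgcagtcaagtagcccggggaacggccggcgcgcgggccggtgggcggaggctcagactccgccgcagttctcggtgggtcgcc
In Hspa5 the element lies on the strand of the gene with its first base at -65, and in Creld2 on the opposite strand with its first base at -126. Creld2 rose by 0.29 ± 0.08, a call held in 1 of the 6 fits that left out 1 array. Searched on both strands, the element occurred in 5 of 555 windows of called rises (0.901%), in 1 of 774 windows of called falls (0.129%), and in 22 of the 19175 windows of all genes tested (0.115%). The 5 rises were Creld2, Dnajc3, Hsp90b1, Hspa5 and Pdia6, all of them members of the unfolded protein response list. In that list 9 of 22 windows held it, so the counts for rises and for the list share these genes and are not separate observations. Another element of this response, TGACGTGG, was found in 1.80% of windows of rises, 0.646% of windows of falls and 0.777% of all windows. Both elements were searched after the rises had been seen, and a match is a description of the letters only.

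Rises were also found among genes known to answer to ATF4, the factor made when the initiation factor eIF2 is phosphorylated, as under amino acid shortage or ER stress. Of 31 tested genes of this response 9 were higher and 0 lower, and of 18 cytosolic tRNA synthetases 8 were higher and 0 lower, against 2.82% of all genes higher and 3.91% lower. Ddit3, which encodes the stress factor CHOP, had 1177, 1068 and 1030.1 with CsA and 816, 664 and 724 with Flt3-L alone. The groups did not overlap (0.58 ± 0.11, 1.49-fold, adjusted p = 0.00266). Atf4 itself had 745, 711 and 696 with CsA and 582, 571 and 603 with Flt3-L alone (0.29 ± 0.05, adjusted p = 0.00201), and it was called in every fit that left out 1 array but not in the 6 arrays alone (adjusted p = 0.0574). Atf5, a related factor, rose by 0.49 ± 0.08, and Sesn2, a leucine-binding brake on mTORC1, by 0.42 ± 0.08, both stable. Trib3, a pseudokinase that feeds back on ATF4, rose by 0.36 ± 0.11, a call that survived in 1 of those 6 fits. Asns, a classic ATF4 target, differed by 0.21 ± 0.07 and missed the threshold (adjusted p = 0.0583), and Chac1 and Psat1 were not called either.

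Synthetases charge tRNAs with their amino acids. Tars, for threonine, gave 454, 435 and 386 with CsA, against 321, 304 and 305 with Flt3-L alone (0.45 ± 0.10, adjusted p = 0.00693). Cars, for cysteine, gave 888, 885 and 877 with CsA and 623, 654 and 675 with Flt3-L alone (0.44 ± 0.07, adjusted p = 2.96e-04). Yars rose by 0.39 ± 0.06 and Sars by 0.37 ± 0.06, and all 4 were stable. The number of rises in fits that left out 1 array was 6 to 9 for the ATF4 list and 4 to 8 for the synthetases. In the 6 arrays alone it was 4 and 5. Eif2s2, the beta subunit of eIF2, was a stable rise outside these lists, at 0.52 ± 0.09, and its other probe set differed by 0.30.

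The composite element that ATF4 binds with a C/EBP partner, TGATGNAA, is shown in capitals in the windows of Tars (chr15:11399609-11399908, minus strand) and of Slc7a11 (chr3:50443564-50443863, minus strand), the cystine importer. They were chosen as called genes of these lists with a match. Slc7a11 had 2111, 1997 and 1819.5 with CsA and 1476, 1529 and 1483 with Flt3-L alone (0.40 ± 0.10), a rise called in 2 of the 6 fits that left out 1 array.
Tars: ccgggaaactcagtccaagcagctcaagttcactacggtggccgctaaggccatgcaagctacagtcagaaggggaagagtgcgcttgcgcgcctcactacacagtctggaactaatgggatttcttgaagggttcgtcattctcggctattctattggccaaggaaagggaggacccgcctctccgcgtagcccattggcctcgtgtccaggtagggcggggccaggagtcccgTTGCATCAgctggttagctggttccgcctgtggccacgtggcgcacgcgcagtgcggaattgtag
Slc7a11: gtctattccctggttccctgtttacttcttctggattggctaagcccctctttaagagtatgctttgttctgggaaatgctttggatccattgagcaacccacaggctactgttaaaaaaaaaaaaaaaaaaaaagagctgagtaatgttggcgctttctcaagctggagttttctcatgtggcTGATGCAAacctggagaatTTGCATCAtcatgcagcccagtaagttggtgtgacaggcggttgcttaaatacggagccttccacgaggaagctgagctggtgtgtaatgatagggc
Tars holds it once, on the opposite strand with its first base at -15, and Slc7a11 2 times, at -66 on its own strand and at -47 on the opposite one. The element lay in 10 of 31 windows of the ATF4 list and 4 of 11 of the synthetases. Among all called rises it lay in 3.42% of windows, among all called falls in 2.84%, and among all genes tested in 3.08%. The NFAT core GGAAAA was in 19.1% of windows of rises, 21.7% of windows of falls and 22.0% of all windows. The AP-1 element TGANTCA was in 4.32% of windows of rises, 7.24% of windows of falls and 6.89% of all windows. The cAMP element TGACGTCA was in 3.96%, 1.42% and 2.37% of the same 3 sets, and the GC box GGGCGG in 65.8%, 43.8% and 49.2%.

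**Figure D3:**
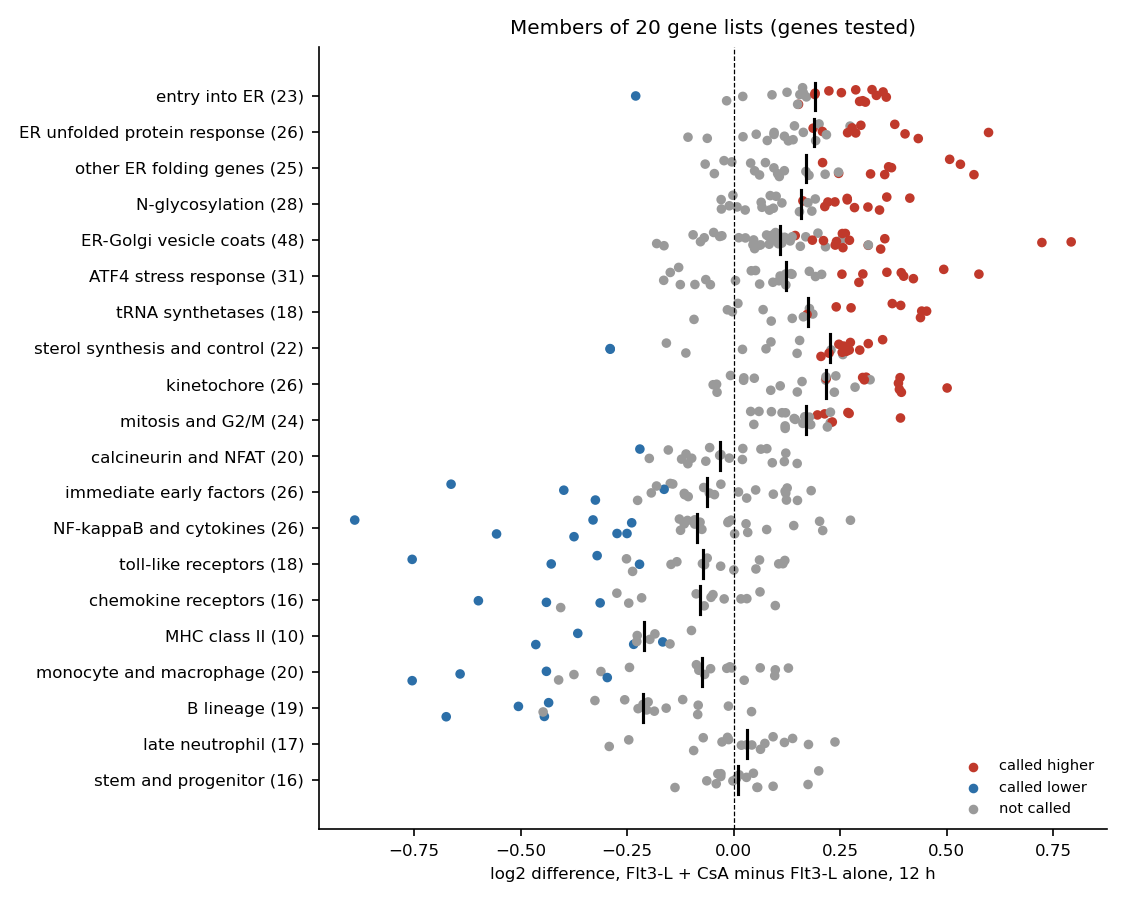
Each dot is 1 tested gene of 20 gene lists at its log2 difference, Flt3-L with CsA minus Flt3-L alone at 12 h, and the bar is the list's median. Called rises are red and called falls blue. The ER, glycosylation, vesicle, ATF4, synthetase, sterol, kinetochore and mitosis lists lie mostly above 0, and the MHC class II and B lineage lists mostly below.

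Sterol synthesis genes rose as well, 11 of 22 against 2.82% of all genes, while 2 fell. The enzymes ran from Mvd at 0.20 to Pmvk at 0.35 on the log2 scale. Lss, which closes the first sterol ring system, had 388, 386 and 322 with CsA and 290.3, 295 and 292 with Flt3-L alone (0.32 ± 0.07, adjusted p = 0.00883). Hmgcs1, at the entrance of the pathway, rose by 0.25 ± 0.07, and Insig1, which holds the sterol sensor in the ER, by 0.22 ± 0.06. The 2 that fell serve sterol export: Abcg1, an export pump, at -0.29 ± 0.07, and Nr1h3, the oxysterol receptor that controls it, at -0.29 ± 0.08. Neither fall was called with array medians subtracted. The sterol rises depended on single arrays, with 2 to 11 called when 1 array was left out, fewest without CsA array 2. In the 6 arrays alone 1 of the 22 rose. Srebf2, the master regulator, differed by 0.02 ± 0.04.

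Genes of the dividing cell held rises as well. Kinetochore genes, which tie chromosomes to the spindle, rose in 9 of 26 cases, and genes of mitosis and G2/M in 6 of 24, with 0 lower in both, against 2.82% of all genes higher. The kinetochore list was drawn up after values had been seen. All 24 mitosis genes had a positive difference (median 0.17), against 7669 of all 19935 genes. All 24 stayed with the dim genes left out, where 6361 of 13290 genes were positive. Cenph had 277, 318 and 261 with CsA and 181, 215 and 207 with Flt3-L alone (0.50 ± 0.11, adjusted p = 0.00787), and Cenpc1 rose by 0.39 ± 0.08. For both the groups did not overlap. Among mitotic genes Cdc25c, the phosphatase that opens mitosis, rose by 0.39 ± 0.11 and Ttk, a checkpoint kinase, by 0.27 ± 0.08. Of 29 genes of DNA replication and S phase only Ccne2, cyclin E2, was called (0.39 ± 0.10). Yet 25 of the 29 were positive (median 0.12). At an unadjusted limma p under 0.05 there were 12 of them, all higher, against 5235 of all 19935 genes in either direction. The kinetochore count ran from 1 to 12 and the mitosis count from 0 to 10 when 1 array was left out, most without CsA array 3. The count over all 19935 genes ran from 148 to 1089 rises, also most without CsA array 3. In the 6 arrays alone the counts were 2 and 1. None of these genes was stable. Cyclin D1, its kinase and Myc were not called: Cdk4 differed by 0.03 ± 0.05, Myc by -0.07 ± 0.07 and Ccnd1 by -0.21 ± 0.07 (adjusted p = 0.0592).

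Single rises outside these pathways were led by Klk1b11, a kallikrein-like serine protease. It had 809, 854 and 753 with CsA and 383, 390.4 and 443 with Flt3-L alone, a difference of 0.99 ± 0.11 (adjusted p = 5.25e-06). The kallikrein cluster holds near-identical copies, so the signal cannot be given to this copy alone. Hcar2, the receptor for niacin and ketone bodies on myeloid cells, had 1362, 1297 and 1132 with CsA and 713, 788 and 658 with Flt3-L alone (0.81 ± 0.17, 1.76-fold). Nt5e, the surface enzyme CD73 that makes adenosine, gave 605, 622 and 628 with CsA and 403, 426 and 422 with Flt3-L alone. Its 3 CsA arrays lay close together and well clear of the others (0.57 ± 0.09, adjusted p = 5.39e-04). All 3 were stable.

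Of 5 genes of the CD200 receptor family, which holds inhibitory and activating receptors of myeloid cells and their ligand, 3 rose and 1 fell. Of all genes 2.82% rose and 3.91% fell. Cd200r4 had 484, 479 and 386 with CsA and 266, 309.7 and 289.8 with Flt3-L alone (0.63 ± 0.10). Cd200r2 rose by 0.63 ± 0.10 and Cd200r1 by 0.44 ± 0.09, whereas the ligand gene Cd200, dim on these arrays, fell by 0.30 on the log2 scale (adjusted p = 0.0262). That fall was called in 1 of the 6 fits with 1 array left out. The receptor genes are close copies of each other. Il18bp, the decoy that binds interleukin 18, rose by 0.52 ± 0.08, and Clec10a, a galactose-type lectin of dendritic cells and macrophages, by 0.62 ± 0.15. The rise of Clec10a was called in 3 of the 6 fits with 1 array left out. Of the 15 largest rises Tmem45a2, Macroh2a2, Brd8dc and Zfp119b had mean signals below the array median, and none of these 4 was called in all 6 fits with 1 array left out.

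**Figure D4:**
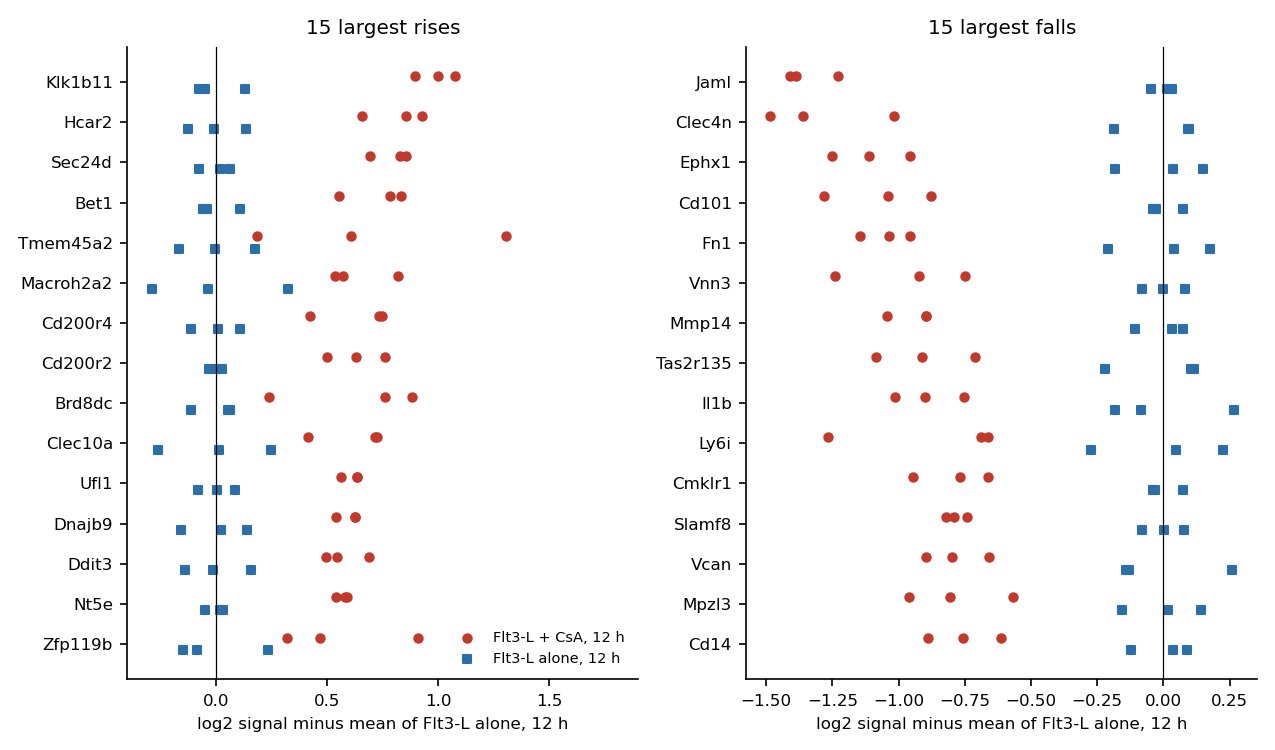
The 15 largest rises (left) and the 15 largest falls (right) among called genes whose groups did not overlap. Each symbol is 1 array, at its log2 signal minus the mean of the 3 arrays with Flt3-L alone. Red circles are Flt3-L with CsA and blue squares Flt3-L alone, and Tmem45a2 is spread most among the CsA arrays.

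Turning to the target of the drug, the genes of calcineurin and NFAT gave 1 call. Of 20 components 0 rose and 1 fell, against 2.82% and 3.91% of all genes. That gene was Nfatc1, with 724, 732 and 683 with CsA and 828, 846 and 818 with Flt3-L alone (-0.22 ± 0.06, adjusted p = 0.0229), and the call ended with array medians subtracted and in 5 of the 6 fits with 1 array left out. The other NFAT genes Nfatc2, Nfatc3, Nfatc4 and Nfat5 differed by -0.03 ± 0.06, 0.08 ± 0.05, -0.20 ± 0.09 and 0.06 ± 0.07. The catalytic subunits Ppp3ca, Ppp3cb and Ppp3cc differed by -0.06 ± 0.05, 0.12 ± 0.05 and -0.07 ± 0.08, and the regulatory subunit Ppp3r1 by 0.15 ± 0.06. Ppia, which encodes cyclophilin A, differed by -0.01 ± 0.05. Rcan1, a calcineurin inhibitor whose gene NFAT switches on, had 229, 194 and 244 with CsA and 222, 259.5 and 242 with Flt3-L alone, so that the groups overlapped (-0.12 ± 0.09, adjusted p = 0.391).

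Some genes that NFAT is known to switch on in lymphocytes were lower: 5 of 21 fell and 0 rose, against 3.91% of all genes that fell. Egr2, an immediate early zinc finger factor, had 112, 127 and 112 with CsA, against 181, 178 and 196 with Flt3-L alone (-0.66 ± 0.10, 1.58-fold lower, adjusted p = 5.49e-04). Nr4a1, an orphan receptor of the same early class, had 277, 263 and 269.5 with CsA and 348, 376 and 344 with Flt3-L alone (-0.40 ± 0.07). Tnf, the inflammatory cytokine, had 647, 674 and 600.1 with CsA and 898, 989 and 939 with Flt3-L alone (-0.56 ± 0.09, adjusted p = 0.00109). In these 3 genes every CsA array was below every array without it, and all were stable. Ccl3, a chemokine, fell by 0.39 and Irf4, a lymphoid and dendritic cell factor, by 0.37 on the log2 scale. Irf4 was not called with array medians subtracted (adjusted p = 0.0536). Egr1 and Egr3 differed by -0.11 ± 0.12 and -0.18 ± 0.09 and were not called. Among 26 immediate early factors 4 fell, Egr2, Nr4a1, Nr4a2 and Dusp6, and 0 rose. With 1 array left out 2 to 5 fell, fewest without Flt3-L array 2 and most without CsA array 3, and with array medians subtracted 3 fell and 1 rose. Over all 19935 genes 184 to 2132 fell with 1 array left out. With array medians subtracted 1.29% of all genes fell and 3.94% rose. Dusp6 was called in 2 of the 6 fits with 1 array left out.

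Inflammatory genes were lower as well. Of 26 genes of the NF-kappaB pathway and its cytokines 7 fell and 0 rose, against 3.91% of all genes that fell. Tnf, counted above, was among the 7. With array medians subtracted 4 of the 26 fell, against 1.29% of all genes. With 1 array left out 3 to 7 of them fell, and 184 to 2132 of all 19935 genes. Il1b, the inflammasome cytokine, had 386, 463 and 418 with CsA and 687, 938 and 736 with Flt3-L alone (-0.89 ± 0.19, 1.85-fold lower, adjusted p = 0.00786). Il12a, a subunit of interleukin 12, fell by 0.37 on the log2 scale, and both genes were stable. Cd40, Nfkbie, Sod2 and Icam1 differed by -0.24 to -0.33, and of these only Cd40 was called with array medians subtracted.

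Chemokine genes were split: of 24 ligands 2 rose and 4 fell, against 2.82% and 3.91% of all genes. Ccl6 had 1720.1, 2136 and 2009 with CsA and 2944, 3185 and 3216 with Flt3-L alone (-0.68 ± 0.06, adjusted p = 1.58e-06), and Cxcl16 fell by 0.47 on the log2 scale, both stable. Ccl24 and Ccl3 also fell, whereas the monocyte attractants Ccl2 and Ccl7 rose by 0.42 ± 0.12 and 0.48 ± 0.14. Neither rise was called in more than 2 of the 6 fits with 1 array left out. Among 16 chemokine receptors 3 fell: Cxcr5, the B cell follicle receptor, at -0.60 ± 0.10, Cx3cr1, the fractalkine receptor of monocytes, at -0.44 ± 0.08, and Ccr6 at -0.31 ± 0.07. Of 18 toll-like receptors and adaptors 4 fell, again against 3.91%. Cd14, which hands lipopolysaccharide to Tlr4, had 188, 207 and 171 with CsA and 291, 325 and 337 with Flt3-L alone (-0.75 ± 0.11). Tlr8 and Tlr9, sensors of RNA and DNA in endosomes, fell by 0.43 and 0.32 on the log2 scale, both stable, and Tlr13 by 0.22.

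The largest falls included surface genes of myeloid cells. Jaml, an adhesion molecule of neutrophils and monocytes, stood first with 179.8, 204 and 183 with CsA, against 482, 462 and 489 with Flt3-L alone. The CsA signals were below the lowest of the others by a wide margin (-1.34 ± 0.12, 2.53-fold lower, adjusted p = 1.27e-06). Clec4n, which encodes the fungal pattern receptor dectin-2, had 334, 264 and 242 with CsA and 595, 723 and 721 with Flt3-L alone (-1.29 ± 0.13, 2.44-fold lower). Ephx1, a detoxifying epoxide hydrolase, had 98.5, 109.6 and 89.5 with CsA and 218, 187 and 236 with Flt3-L alone (-1.11 ± 0.12). The other falls past 2-fold were Cd101, an inhibitory receptor of myeloid and T cells, and Fn1, the matrix protein fibronectin. Cd101 had 467, 618 and 553 with CsA and 1115, 1195 and 1107 with Flt3-L alone (-1.07 ± 0.17). Fn1 had 899.7, 1026 and 971 with CsA and 1722, 2249.9 and 2046 with Flt3-L alone (-1.05 ± 0.11, adjusted p = 3.17e-06). All 5 were stable.

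Below 2-fold came Vnn3, a pantetheinase, at -0.97 ± 0.12, Mmp14, a membrane-bound matrix protease, at -0.94 ± 0.14, Cmklr1, the chemerin receptor, at -0.79 ± 0.09, and Slamf8 at -0.78 ± 0.09. Mmp14 had 249, 249 and 225 with CsA and 430.3, 488 and 475 with Flt3-L alone. Vcan, the matrix proteoglycan versican of monocytes, fell by 0.78 on the log2 scale and was called in 4 of the 6 fits with 1 array left out. Ly6i fell by 0.87 on the log2 scale, but it belongs to a family of near-identical copies, and Tas2r135, a taste receptor gene, lay below the array median. Prostaglandin enzymes moved apart: Hpgd, which breaks prostaglandins down, fell by 0.53 on the log2 scale, and Hpgds, which makes prostaglandin D2, rose by 0.51 ± 0.10. Dpep2, a leukotriene peptidase, had 895, 952 and 893 with CsA and 1238, 1293 and 1233 with Flt3-L alone (-0.46 ± 0.05, adjusted p = 1.29e-05). The other probe set of Dpep2 differed by -0.02.

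Markers of cell types were read beside these genes. Some genes stand in more than 1 list, so that 1 call can be counted in several, as for Cd14, Cx3cr1 and Irf4. In RNA of a whole culture, fewer cells of a type and less RNA per cell cannot be told apart. Of 20 monocyte and macrophage markers 0 rose and 4 fell, Cd14, Adgre1, Cx3cr1 and Csf1r. For this and the other marker lists, the shares over all genes were 2.82% higher and 3.91% lower. Adgre1, the macrophage marker F4/80, had 1048, 1025 and 879 with CsA and 1540.5, 1552 and 1501 with Flt3-L alone, the smallest adjusted p of the named genes (-0.64 ± 0.06, adjusted p = 8.98e-07). The summed signal of the 20 markers overlapped between the groups, from 25642 to 28391 with CsA and from 27727 to 28644 with Flt3-L alone. The summed signal of 24 conventional dendritic cell markers did not overlap, at 13665 to 14443 with CsA and 15839 to 16813 with Flt3-L alone, with 5 falls and 1 rise (Clec10a). With array medians subtracted 2 of these markers fell, H2-Aa and H2-Eb1, and 2 rose. For 15 plasmacytoid dendritic cell markers it overlapped, at 11246 to 12251 with CsA and 11530 to 13023 with Flt3-L alone, with 2 falls (Tlr9 and Bst2). The fall of Bst2 ended whichever array was left out and with array medians subtracted, which left 1.

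MHC class II genes, which present peptides to helper T cells, were negative in 10 of 10 cases, and 4 of the 10 fell. Of all 19935 genes 12266 were negative, and 3.91% fell. H2-Eb1 had 1543, 1493 and 1513 with CsA and 2118, 2133 and 2027 with Flt3-L alone (-0.46 ± 0.07, adjusted p = 4.78e-04). H2-Aa had 1904, 1900.0 and 1810.5 with CsA and 2404, 2327 and 2506 with Flt3-L alone (-0.37 ± 0.07). Both were stable. The falls of Cd74, the invariant chain, and Ctss, the protease that trims it, ended with array medians subtracted and whichever of the 6 arrays was left out, so that 2 falls were called in each of those fits. This list was drawn up after values had been seen. Its H2-Aa, H2-Eb1 and Cd74 are also among the dendritic cell markers counted above. Of 16 myeloid C-type lectin receptors 3 fell and 1 rose. Beside Clec4n these were Clec7a, the glucan receptor dectin-1, at -0.47 ± 0.09 and Clec4a1 at -0.39 ± 0.08.

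B lineage markers were negative in 18 of 19 cases, and 4 fell. Of all 19935 genes 12266 were negative, and 3.91% fell. Fcmr, the receptor for IgM, had 646, 526 and 597 with CsA and 1032, 838 and 955 with Flt3-L alone (-0.67 ± 0.12, adjusted p = 0.00128). Cd72, an inhibitory receptor of B cells, fell by 0.44 on the log2 scale, and both were stable. Rag1, of the recombinase, had 528, 425 and 493 with CsA and 778, 585 and 694 with Flt3-L alone (-0.51 ± 0.14), called in 2 of the 6 fits with 1 array left out, and Fcer2a fell by 0.43. The summed signal of the 19 markers lay at 17009 to 20110 with CsA and 20363 to 23112 with Flt3-L alone, without overlap. The closest sums, 20110 on CsA array 1 and 20363 on Flt3-L array 2, came from arrays with medians of 117.3 and 121.0. No summed signal of a marker list was scaled to array medians, so this narrow separation holds for the signals as deposited only. B cells also carry MHC class II, Cxcr5 and Cd72, and the part of B cells in the falls of these genes was not tested.

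Other lineages showed few calls. Of 16 stem and progenitor, 12 primary granule, 17 late neutrophil, 13 erythroid and 10 megakaryocyte markers 0 were called in either direction by limma. At an unadjusted p under 0.05 the numbers were 1, 0, 2, 4 and 1 in the order named, and 5235 of all 19935 genes. The 13 erythroid genes were all positive (median 0.14), against 7669 of all 19935 genes. All 13 stayed with the dim genes left out, where 6361 of 13290 genes were positive. Their summed signal was 37582 to 39837 with CsA and 33292 to 36775 with Flt3-L alone. The part of the erythroid, B lineage and dendritic cell sums in the other gene groups was not tested. Of 19 T and NK cell markers Cd28 alone rose (0.31 ± 0.07). Of 19 eosinophil, basophil and mast cell markers Prg2, the eosinophil major basic protein, fell by 0.31 on the log2 scale, and 0 were called with array medians subtracted. In stroma and endothelium Fn1 was the only call of 17, and the summed signal was 4071 to 4389 with CsA and 5157 to 5635 with Flt3-L alone. Fn1 is part of that sum, and without its signals, given above, the sums of the groups overlap. The median difference of the 17 genes was -0.07, against -0.04 over all genes. Fn1 is also a gene of macrophages, and the part of stromal cells in its fall was not tested. Flt3, the receptor of the ligand, was not called (0.01 ± 0.09, adjusted p = 0.97).

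In the remaining lists between 0 and 3 members were called in either direction, to be read against 2.82% of all genes higher and 3.91% lower. With the dim genes left out these shares were 5.12% and 4.99%. Of 20 interferon-stimulated genes 3 fell, Oasl1, Oasl2 and Bst2, and 0 were called with array medians subtracted. Rises and falls were 2 and 2 of 20 for ribosome biogenesis, 2 and 0 of 15 for cyclins D, CDK inhibitors and pocket proteins, and 1 and 0 of 18 for p53 and its targets. They were 0 and 2 of 16 for apoptosis regulators, 1 and 0 of 19 for NRF2 genes, 2 and 1 of 20 for glucose use and hypoxia, and 0 and 2 of 20 for lysosome genes. The p53 and NRF2 rises were Sesn2 and Slc7a11, both counted above in the ATF4 list. Fatty acid genes gave 2 and 0 of 11, leukotriene and prostaglandin genes 2 and 2 of 19, growth factor receptors 0 and 2 of 23, and interleukin 1 genes 1 and 1 of 12. Matrix proteolysis genes gave 0 and 3 of 17, lineage transcription factors 1 and 2 of 26 and translation initiation factors 2 and 0 of 25. With array medians subtracted the falls were 0 for apoptosis, ribosome biogenesis, glucose use and lineage factors, and 1 each for lysosome, growth factor receptor and matrix genes, and 4 fatty acid genes rose. With 1 array left out the rises ran from 0 to 2 for cyclins, NRF2 and glucose genes, 0 to 3 for ribosome biogenesis, 1 to 3 for fatty acid genes and 1 to 4 for translation initiation, a list drawn up after values had been seen. The falls ran from 0 to 3 for apoptosis, 0 to 2 for interferon, ribosome biogenesis and lineage factor genes and 1 to 4 for growth factor receptors, and were 2 for matrix genes in each fit. The highest of these counts for ribosome biogenesis, fatty acid, translation, apoptosis and growth factor receptor genes came without CsA array 3. Over all 19935 genes the rises ran from 148 to 1089 and the falls from 184 to 2132, both most without that array. With array medians subtracted 3.94% of all genes rose and 1.29% fell.

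The effects of CsA at 24 h, 48 h and 11 days come from other arrays, so that repeats could be counted. At 24 h, 318 genes rose (1.6%) and 436 fell (2.19%, together 3.78%), at 48 h 432 rose (2.17%) and 468 fell (2.35%, together 4.51%), and at 11 days 980 rose (4.92%) and 1411 fell (7.08%, together 12%). Of the 562 rises at 12 h, 163 rose again at 24 h (29.0% of them and 51.3% of the rises at 24 h), 142 at 48 h (25.3% and 32.9%) and 86 at 11 days (15.3% and 8.8%). Of the 779 falls, 139 fell again at 24 h (17.8% and 31.9% of the falls then), 132 at 48 h (16.9% and 28.2%) and 117 at 11 days (15% and 8.3%). Calls in the opposite direction were 1 and 1 at 24 h and 1 and 3 at 48 h for rises and falls, but 35 and 32 at 11 days. Across all genes the 12 h differences correlated with those at 24 h at r = 0.431, at 48 h at 0.266 and at 11 days at -0.002, a description over genes that are not independent.

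**Figure D5:**
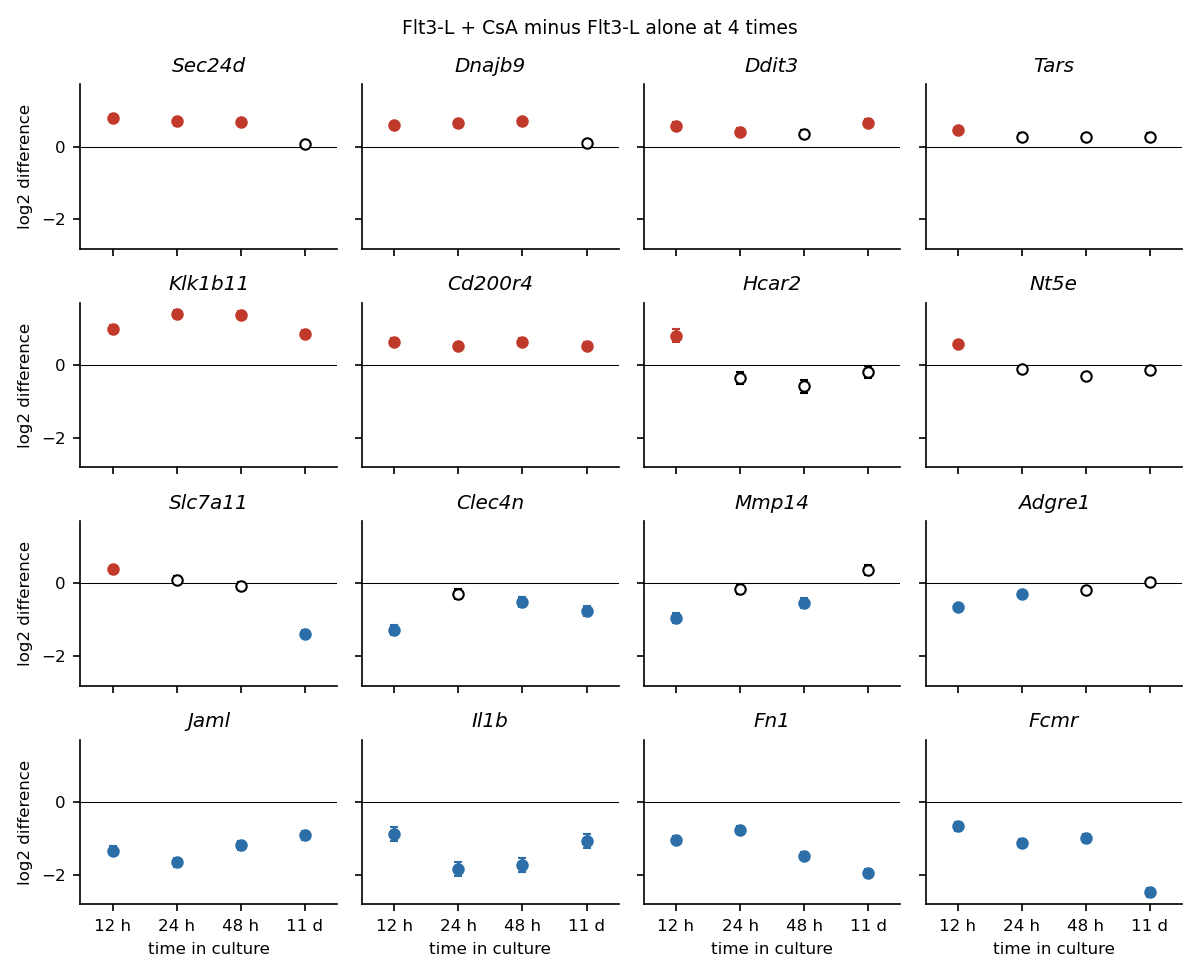
CsA effect on 16 named genes at 12 h, 24 h, 48 h and 11 days, as log2 difference, Flt3-L with CsA minus Flt3-L alone, with SE bars (3 arrays a group). Filled symbols are called rises (red) or falls (blue) and open ones are not called. Sec24d and Dnajb9 stay high until 48 h, Nt5e is called at 12 h only, and Jaml and Fn1 are low at all 4 times.

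In all, 30 rises and 54 falls at 12 h were called the same way at all 4 times. The lasting rises included the ATF4 genes Atf4, Atf5, Sesn2, Trib3 and Mthfd2, the synthetases Cars, Sars and Yars, Klk1b11, Cd200r2 and Cd200r4. Atf5 differed by 0.49 ± 0.08 at 12 h, 0.85 ± 0.08 at 24 h, 0.97 ± 0.08 at 48 h and 0.60 ± 0.08 at 11 days. The lasting falls included Jaml, Fn1, Ephx1, Il1b, Egr2, Nr4a1, Irf4, Nfatc1, Fcmr and Cxcr5. Il1b differed by -0.89 ± 0.19 at 12 h, -1.85 ± 0.19 at 24 h, -1.73 ± 0.19 at 48 h and -1.06 ± 0.19 at 11 days. The secretory rises were called mostly up to 48 h. Entry genes gave 13, 14, 16 and 1 rises of 23 at 12 h, 24 h, 48 h and 11 days, and unfolded protein response genes 10, 9, 11 and 4 of 26. Sec24d differed by 0.79 ± 0.08, 0.69 ± 0.08, 0.68 ± 0.08 and 0.08 ± 0.08 at these times. Sterol genes rose in 11, 13, 3 and 2 of 22 cases, and at 11 days 10 fell. Kinetochore genes rose in 9, 0, 0 and 2 of 26 cases. Their median difference was 0.22 at 12 h and 0.13 at 24 h. The 12 h effect itself differed from the 24 h effect in 0 of the 26, and from the mean of the later effects in 2.

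Whether an effect at 12 h differed from the later ones was tested directly. The 12 h effect minus the mean of the 3 later effects was called for 797 genes (4%), 353 higher (1.77%) and 444 lower (2.23%). These held 80 of the 562 rises with a larger rise at 12 h and 265 of the 779 falls with a deeper fall. Those rises and falls were picked by the same 12 h values, which favours larger effects at 12 h. The median of this difference over all genes was -0.05, and it was not fitted with array medians subtracted. Against the 24 h effect alone 24 genes were called (0.12%), 17 higher (0.0853%) and 7 lower (0.0351%). Without CsA array 3 these counts were 2442 and 65, and without any one of the other arrays at 12 h 232 to 500 and 10 to 28. After repeated quantile normalization they were 689 and 27. Nt5e rose by 0.57 ± 0.09 at 12 h and differed by -0.11 ± 0.09 at 24 h, -0.30 ± 0.09 at 48 h and -0.13 ± 0.09 at 11 days, so that the 12 h effect exceeded the 24 h effect by 0.68 (adjusted p = 0.0217). Hcar2 differed by 0.81 ± 0.17, -0.36 ± 0.17, -0.59 ± 0.17 and -0.19 ± 0.17 at the 4 times, 1.19 above the later mean (adjusted p = 0.00175). Slc7a11 differed by 0.40 ± 0.10 at 12 h and -1.39 ± 0.10 at 11 days, where it fell (difference from the later mean 0.85, adjusted p = 1.58e-04). Among falls, Clec4n had a 12 h effect minus 24 h effect of -1.0 (adjusted p = 0.0217), and Adgre1 a 12 h effect of -0.50 relative to the later mean (adjusted p = 1.58e-04). For Tnf this difference was -0.42 (adjusted p = 0.0303). Other falls were larger later: Fcmr differed by -0.67 ± 0.12 at 12 h and -2.49 ± 0.12 at 11 days (0.86, adjusted p = 6.87e-04), and Cxcr5 by -1.41 ± 0.10 at 24 h (0.81 between the 2 times, adjusted p = 0.0123). Eosinophil, basophil and mast cell markers belonged with these: 1 of 19 fell at 12 h and 12 at 24 h, and the difference itself was called for 5 of them.

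The arrays with Flt3-L alone can also be set beside unstimulated marrow. Both comparisons use those arrays, so no correlation or overlap between them was taken. The labels do not say how the unstimulated cells were kept, so Flt3-L and 12 h in culture cannot be told apart here. Between Flt3-L alone and unstimulated cells 36% of the genes were called, 17.8% higher and 18.1% lower. Dnajb9 had 1096, 1096 and 1032 with CsA, 636, 781 and 720.2 with Flt3-L alone and 1166, 1119 and 1123 in unstimulated cells, so that the CsA arrays lay between the other 2 groups. Pdia3 had 2950.3, 3032 and 2627 with CsA, 2094, 2093 and 2180.0 with Flt3-L alone and 2851, 2736 and 2856 in unstimulated cells. Ddit3 had 312, 342 and 361 in unstimulated cells, and both cultures lay far above that. Clec4n had 48.8, 61.7 and 56.2 in unstimulated cells, so the CsA arrays held a signal between unstimulated cells and Flt3-L alone. Fn1 had 3479, 3772 and 3461 in unstimulated cells, above both cultures at 12 h. Egr2 had 184, 229.8 and 189 in unstimulated cells, where Flt3-L alone differed by -0.11 ± 0.10 and was not called.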

How the data were processed

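Total RNA of 27 cultures was labelled and hybridised to Affymetrix arrays, per the labels' protocols, 1 array a sample. The authors deposited probe set intensity on a linear scale (5.2 to 18180.7), made with RMA per the submitters' processing notes. The array's scanner files were not used here, and signal over background is unknown. Of 28815 probe sets, 21780 had 1 gene symbol in the platform annotation, 1605 had several and 5430 were not named. For the 998 genes with several probe sets, the one with the highest mean over all arrays was taken, which left 19935 genes. Log2 intensity was fitted with limma 3.58.1 in R 4.3.3 as 9 group means over 27 arrays, with empirical Bayes moderation and Benjamini-Hochberg adjustment over all genes. Differences between times were contrasts of the same fit. Tables were made with pandas 2.3.3 on Python 3.11.15 and figures with matplotlib 3.10.9. On simulated data for the 12 h comparison, run on 19935 genes, the fit called 46 of 50 genes lowered by 0.5 and 45 of 50 raised by 0.5 on the log2 scale, and 8 of 19735 unchanged genes. The simulated noise was normal and independent between genes and arrays, with no shift of single arrays. These counts check the fit and are not error rates of the real arrays.

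The comparison, the gene lists and the tests were chosen with earlier results of these data known, and 8 gene families were added after their values had been seen: entry into the ER, N-glycosylation, UFM1 conjugation, vesicle coats and tethers, other ER folding genes, MHC class II, translation initiation and the kinetochore. Of 859 list entries 791 were tested. Genes named are the 15 largest rises and the 15 largest falls among called genes without overlap of the groups, leaving out predicted genes, small RNA genes, olfactory and vomeronasal receptors and immune receptor segments. To these come up to 4 members with the largest difference of each list, all called members of lists with 6 or fewer, a set of calcineurin, NFAT, early response, stress and cell cycle genes, and the 5 most extreme genes in each direction of each difference between times. Other called list members, and Xbp1, Atf6, Ern1, Eif2ak3, Asns, Chac1, Psat1 and Srebf2, were named after their values were seen. Replicates were not paired in the fit. The alternatives left out 1 array at a time, took the 6 arrays alone, changed the variance model, the array weights, the scaling, the filter on dim genes and the choice of probe set, and used the replicate number as a block.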

Additional observations from a re-analysis of the deposited data

Results flagged for a closer look

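The effect of CsA at 12 h differed from the mean of its effects at 24 h, 48 h and 11 days for 797 genes, and from the effect at 24 h for 24 genes, by the contrast itself in limma at an adjusted p under 0.05. All values here are log2 differences between effects, 12 h minus later, for genes that were also called at 12 h. Those genes were thus picked by 12 h values that enter the difference.

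Against the later mean, the 12 h effect was higher for Hcar2 by 1.19, Fcmr by 0.86, Slc7a11 by 0.85, Nt5e by 0.75, Gabbr1 by 0.73, Tmem45a2 by 0.70, Zfp119b by 0.64, Brd8dc by 0.61 and Cxcr5 by 0.59. For Fcmr, Gabbr1 and Cxcr5, which were lower with CsA at 12 h, this means a deeper later fall. On the other side lay Mmp14 at -0.83, Clec4n at -0.77, P2ry13 at -0.65, Krtap10-4 at -0.62, Krtap5-2 at -0.60, Myof at -0.42, Tnf at -0.42, Zc3h12c at -0.38 and Fam20c at -0.33. The 2 keratin-associated genes and Tmem45a2, Brd8dc and Zfp119b had signals below the array median.

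Against the 24 h effect alone, the 12 h effect was higher for Cxcr5 by 0.81, Nt5e by 0.68, Gabbr1 by 0.62, Bank1 by 0.53 and Ccl6 by 0.48, and it was -1.0 for Clec4n, -0.55 for Fam20c, -0.48 for Zc3h12c and -0.45 for Myof.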

How the results depend on the processing

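Against 562 rises and 779 falls at 12 h, the 6 arrays alone gave 86 and 91, array weights 1859 and 3442, and array medians subtracted 786 and 258. Leaving out 1 array gave 148 to 1089 rises and 184 to 2132 falls. The intensity trend, robust moderation, repeated quantile normalization, the filter on dim genes and the mean of probe sets gave 551 to 681 rises and 663 to 768 falls. The differences between times were called for 797 genes against the later mean, 232 to 2442 with 1 array left out, and for 24 genes against 24 h, 10 to 65 with 1 array left out. Same-numbered arrays at 12 h deviated together with correlations of 0.19, 0.188 and 0.0979, and each array correlated best with its own number, which is a hint from the data and not from the design. The replicate block gave 97 rises and 116 falls in the 6 arrays, 1605 genes against the later mean and 77 against 24 h. Of 210 called named genes, 77 were called in the 6 arrays alone, 183 with array medians subtracted, 78 with the replicate block and 106 to 199 with 1 array left out, and none turned sign in any of these fits. Signs turned only in genes that were never called: to 0.0214 for Ccnd3, 0.0242 for Nfatc2, 0.0467 for Ppia and 0.000669 for Ppp3ca with array medians subtracted. They also turned to -0.00618 for Cdk4 and -0.0292 for Flt3 after quantile normalization, and to 0.0168 for Ppia with the mean of probe sets. With 1 array left out Flt3 ran from -0.0229 to 0.0450, Ppia from -0.0435 to 0.00798 and Ppp3cc from -0.117 to 0.00181. The cause of these shifts was not tested. The 3 arrays a group limit the precision.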
